A study of Homo sapiens with 4 samples.

Results

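The genes described here are 45 human genes that repair DNA double-strand breaks and crosslinks or signal DNA damage. They act in homologous recombination, the Fanconi anaemia pathway, the damage checkpoint and end joining. They were chosen by name and not by a cut on a measured value, but with earlier results of these data known. All 45 were found among the 60617 genes of the deposited table. The cells were A673, an established Ewing sarcoma line that lacks functional p53 and is driven by a fusion of EWSR1 to FLI1. Cultures received either DMSO, the solvent, or CBL0137 at 1 µM, each for 24 h, and 2 libraries were made per condition. CBL0137 belongs to the curaxins, small molecules that bind DNA and hold the histone chaperone FACT on chromatin. The data are thus from 1 line, 1 dose and 1 time, and the labels do not say whether replicates were separate cultures, and p-values then reflect library-to-library spread alone, which may be technical.

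Between 20483714 and 23373554 reads were assigned to genes in a library, and those of mitochondrial genes made up 5.82% to 5.92%. All 9 Ewing sarcoma markers were detected, with a summed level of 6101 to 6148 CPM in DMSO (read counts scaled by library size after TMM normalisation) and 5896.5 to 5903.5 CPM in CBL0137. The 5 epithelial markers summed to 0.711 to 0.875 CPM in DMSO and 0.475 to 0.476 CPM in CBL0137, with GRHL2 at 0 in every library. The 5 blood markers summed to 1.07 to 1.31 and 0.864 to 1.05 CPM, with CD3E and HBB at 0. The 2 endothelial markers summed to 0.175 to 0.178 and 0.734 to 0.952 CPM, and CDH5 was called higher. The part of these markers in the results was not tested.

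Homologous recombination copies an intact sister sequence into a break, so it works in S and G2 phase, and many of its genes are transcribed under E2F control as cells enter S phase. The Fanconi pathway unhooks crosslinks between DNA strands by attaching ubiquitin to FANCD2 and FANCI and then hands the break to recombination. End joining by Ku and DNA-PK religates broken ends in any phase, and the sensor kinases ATM and ATR are present throughout the cycle and are governed mostly at the protein level. By general knowledge of their biology, and not from a reference table or a measured criterion, members were therefore put into 4 classes. They were 16 genes linked to the cell cycle, 13 other recombination and Fanconi genes, 10 sensor and checkpoint genes, and 6 end-joining genes. The checkpoint kinase CHEK1 was placed in the class linked to the cell cycle.

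After CBL0137, recombination and Fanconi transcripts linked to the cell cycle were modestly lower, whereas damage sensors and end-joining genes had a smaller median difference. A gene was called where edgeR's quasi-likelihood test gave a Benjamini-Hochberg adjusted p below 0.05 over all 17309 genes tested and its fold change exceeded 1.5. Of the 44 members tested, RAD51AP1, UBE2T and FANCB fell at those limits and 0 rose in edgeR, DESeq2 or limma-voom (2 were higher at an unadjusted p below 0.05 in edgeR), against 2.73% of all tested genes called lower and 6.88% called higher. By adjusted p without the fold limit, 22 of 44 members were lower and 2 were higher, against 19.0% and 17.5% of all genes. The median log2 fold change of the members was -0.22, and that of all tested genes was 0.00. Both values depend on the TMM scaling. With library size alone the median of all tested genes was 0.065 and that of the genes linked to the cell cycle -0.27. NHEJ1, the remaining member, had at most 3 reads in any library and was not tested. The conditions did not overlap for 31 members that were lower and 5 that were higher in CBL0137, which compares with 33.4% and 33.5% of all genes.

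Of the 16 genes linked to the cell cycle, 12 were lower by adjusted p and 0 higher (13 and 0 at an unadjusted p below 0.05 in edgeR, 11 and 0 by adjusted p in DESeq2), with a median log2 fold change of -0.33, or a 20.3% lower level. Of the 15 tested sensor, checkpoint and end-joining genes, 5 (33.3%) were lower and 1 higher, with a median of -0.12. Both classes thus exceeded the 19.0% of all tested genes that were lower by adjusted p, while 17.5% were higher. The 13 other recombination and Fanconi genes lay between these pooled medians, with 5 lower, 1 higher and a median of -0.16. Taken apart, the sensor and checkpoint genes had a median of -0.10 and the 5 tested end-joining genes one of -0.16. End joining alone was thus level with the other recombination and Fanconi genes. The difference between the first 2 medians was -0.20 on the log2 scale, and it ran from -0.23 to -0.16 over the 4 pairings of a CBL0137 with a DMSO library. Between replicates of one condition the same difference was -0.00024 in DMSO and 0.033 in CBL0137. In reads, the genes linked to the cell cycle summed to 0.303 and 0.302 of the sensor, checkpoint and end-joining sum in DMSO replicates 1 and 2, and to 0.272 and 0.268 in CBL0137. Reads are not scaled by gene length, and end joining dominated the latter sum. In DMSO replicate 1 it held 53594 reads, against 16131 of the sensor and checkpoint genes. With CHEK1 counted among the checkpoint genes instead, a choice made after seeing the data, 11 of 15 and 6 of 16 genes were lower by adjusted p and the difference between the medians was -0.19. The ratio of reads is taken within a library and does not depend on the scaling. Because members were chosen and put into classes with results of these data known, these counts and medians are a description and carry no p.

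**Figure D1:**
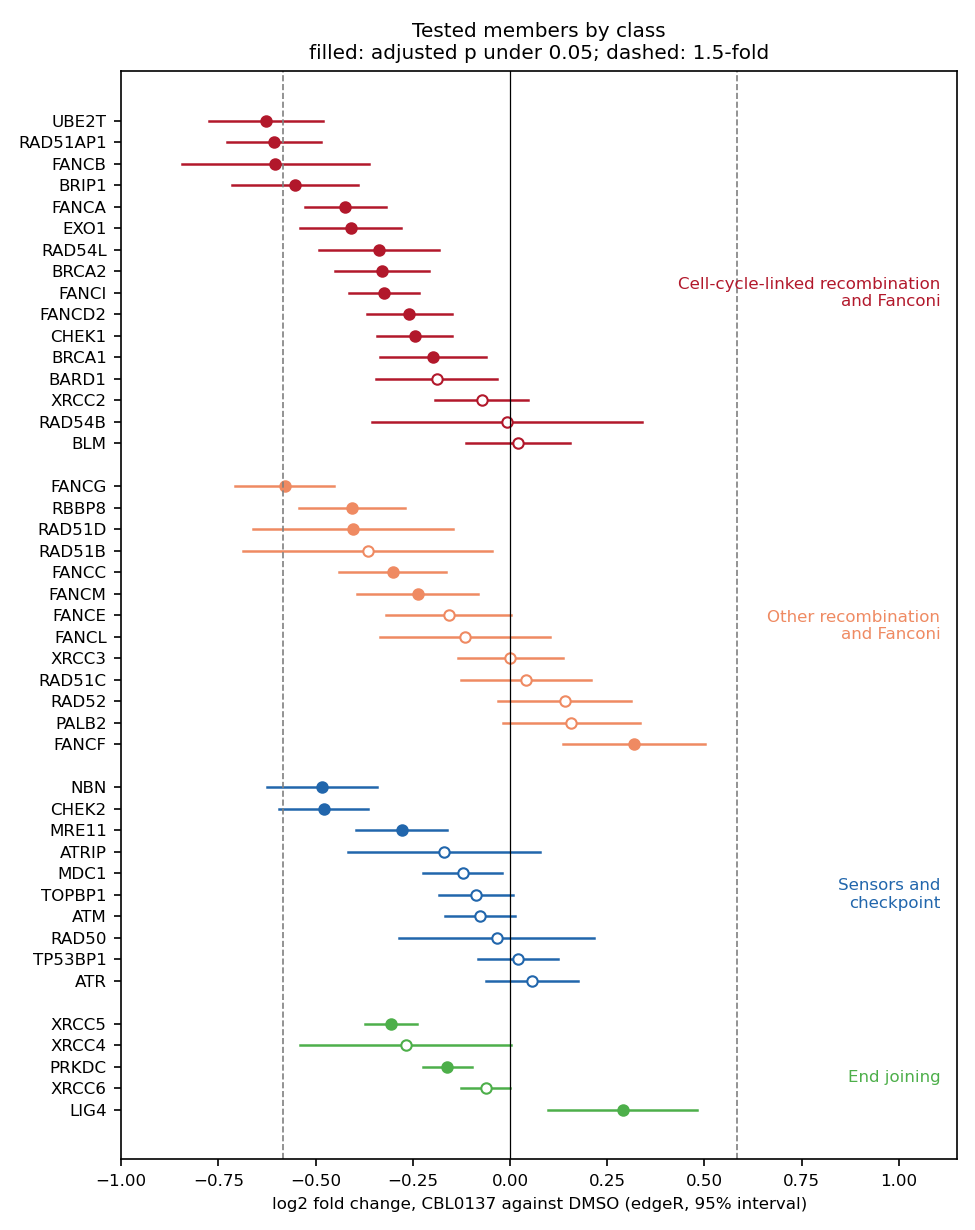
Log2 fold change of each of the 44 tested members, CBL0137 against DMSO, with its 95% interval from edgeR, ordered within 4 classes. Filled points have an adjusted p below 0.05 and dashed lines mark a 1.5-fold difference. In the class linked to the cell cycle 12 of 16 points are filled and left of 0, while only NBN, CHEK2 and MRE11 of the 10 sensor and checkpoint genes, which do not include CHEK1, are filled.

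The promoters of the 3 genes that fell are shown beside those of FANCG, which came closest to the limit, FANCF, which was higher by adjusted p, and the sensor kinase ATR, which differed little. Each is the 150 bases before the RefSeq start site, read 5′ to 3′ on the gene's strand in GRCh38.p14. Capitals mark the E2F-type motif TTCCCGC and the CCAAT box, each as written or on the other strand (GCGGGAA and ATTGG).
RAD51AP1: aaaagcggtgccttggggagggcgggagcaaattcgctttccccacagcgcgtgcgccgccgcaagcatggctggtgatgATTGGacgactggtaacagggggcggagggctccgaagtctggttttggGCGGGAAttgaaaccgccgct
UBE2T: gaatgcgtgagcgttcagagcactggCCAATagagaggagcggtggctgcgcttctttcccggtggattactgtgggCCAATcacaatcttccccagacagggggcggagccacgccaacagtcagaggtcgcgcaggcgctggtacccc
FANCB: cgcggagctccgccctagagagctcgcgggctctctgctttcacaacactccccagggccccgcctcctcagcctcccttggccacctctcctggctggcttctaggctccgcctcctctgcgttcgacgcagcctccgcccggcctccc
FANCG: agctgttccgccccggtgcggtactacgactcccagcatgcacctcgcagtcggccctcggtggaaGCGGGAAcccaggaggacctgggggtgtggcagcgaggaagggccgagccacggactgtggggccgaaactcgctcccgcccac
FANCF: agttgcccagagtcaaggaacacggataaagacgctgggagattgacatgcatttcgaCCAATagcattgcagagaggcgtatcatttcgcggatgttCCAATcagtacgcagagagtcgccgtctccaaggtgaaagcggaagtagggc
ATR: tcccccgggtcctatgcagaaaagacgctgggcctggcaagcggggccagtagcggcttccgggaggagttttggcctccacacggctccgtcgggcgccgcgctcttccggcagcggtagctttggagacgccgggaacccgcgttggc
They lie at chr12:4538740-4538889 on the plus strand for RAD51AP1 and, all on the minus strand, at chr1:202341937-202342086 for UBE2T, chrX:14873070-14873219 for FANCB, chr9:35079943-35080092 for FANCG, chr11:22625824-22625973 for FANCF and chr3:142578734-142578883 for ATR. The RAD51AP1 stretch holds both motifs, with the E2F-type letters beginning 21 bases before the start. UBE2T and FANCF each hold CCAAT boxes at 2 places, and FANCG holds the E2F-type motif 84 bases before its start. FANCB and ATR hold neither in this stretch.

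Across the 40 members with a promoter window in the RefSeq table, each 250 bases before to 50 after a start site, TTCCCGC stood on either strand in 15. All 15 were recombination or Fanconi genes. They were 8 of 14 in the class linked to the cell cycle and 7 of 13 other recombination and Fanconi genes, while 0 of 13 sensor, checkpoint and end-joining genes held it. It occurred in 12.2% of 11891 tested genes with a window and in 6.55% of all 35116 windows. A second E2F-type form, TTGGCGC, was found in 5 of 40 members (12.5%) and in 5.84% of tested genes, and 3 of those 5 were TOPBP1, MDC1 and XRCC6. The CHR-type motif TTTGAA was in 5 of 40 members (12.5%), against 13.9% of tested genes, and the CCAAT box in 21 of 40 (52.5%), against 42.6%. The CCAAT box was most frequent in sensor, checkpoint and end-joining genes, at 9 of 13. It was in 8 of 14 genes linked to the cell cycle and 4 of 13 other recombination and Fanconi genes. For TTTGAA these counts were 2 of 13, 2 of 14 and 1 of 13. On the other strand TTGGCGC reads GCGCCAA, whose last letters a CCAAT box can share. For the 14 members with several windows, a motif in any of them was counted. A match to these letters is not evidence of binding, and BLM, XRCC2 and XRCC3 hold TTCCCGC with log2 fold changes of 0.02, -0.07 and 0.00. RAD54B, FANCI, NBN, PRKDC and XRCC5 were not matched.

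RAD51AP1, a DNA-binding protein that stimulates strand invasion by the recombinase, had the smallest adjusted p of the class linked to the cell cycle (ENSG00000111247, GRCh37 chromosome 12, 4647964 to 4669213). DMSO replicates 1 and 2 held 62.1 and 65.2 CPM, and the CBL0137 pair 42.0 and 41.7 CPM. Both treated libraries lay well below both controls. The log2 fold change was -0.61 ± 0.06 (SE), a 1.52-fold fall, with an edgeR adjusted p of 8.4e-09. UBE2T, the E2 enzyme that carries ubiquitin to FANCD2 and FANCI (ENSG00000077152, chromosome 1, 202300672 to 202311112), measured 41.1 and 44.5 CPM in DMSO and 27.2 and 28.1 CPM in CBL0137. Its conditions did not overlap either (log2 fold change -0.63 ± 0.07, edgeR adjusted p = 1.0e-07). FANCB, a subunit of the ligase that acts with UBE2T (ENSG00000181544, chromosome X, 14708510 to 14891377), was less abundant, at 13.5 and 13.2 CPM in DMSO and 8.52 and 9.07 CPM in CBL0137. It fell by 0.60 ± 0.12 on the log2 scale with an edgeR adjusted p of 2.0e-04.

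All 3 calls sat close to the fold limit, which is 0.58 on the log2 scale, and each was lost when the scaling or 1 library changed. Under upper-quartile factors the values were -0.56 for RAD51AP1, -0.58 for UBE2T and -0.56 for FANCB, and with library size alone -0.55, -0.57 and -0.54. RAD51AP1 and UBE2T missed the limit without DMSO replicate 2, both at -0.58, and FANCB missed it without CBL0137 replicate 1, at -0.56. Those shifts concern the fold limit: in each of these count fits the adjusted p stayed below 0.05. On the deposited FPKM, a length-scaled level, limma-trend on log2(FPKM + 1) gave RAD51AP1 -0.46, UBE2T -0.57 and FANCB -0.44, with limma adjusted p of 0.056, 0.016 and 0.054 (0.21, 0.11 and 0.17 without a filter on low values).

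**Figure D2:**
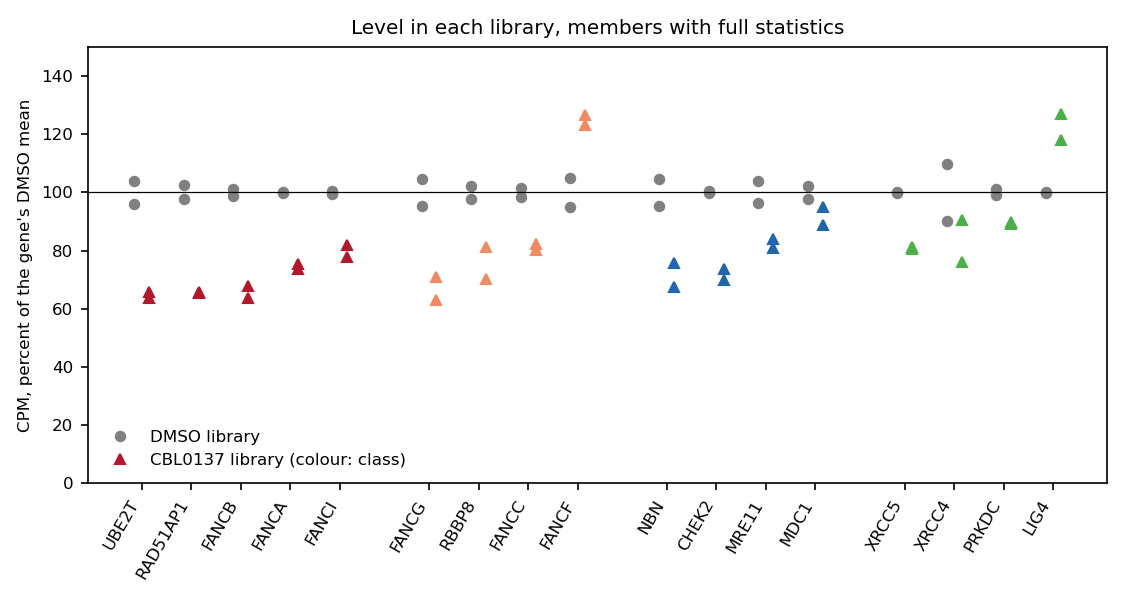
CPM in each library as a percent of the gene's DMSO mean, for the 17 members given full statistics, grouped by class. Grey circles are the 2 DMSO libraries and coloured triangles the 2 CBL0137 libraries. FANCF and LIG4 are the only genes shown whose treated libraries lie above the controls, and XRCC4 is the only one whose conditions overlap.

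Among the BRCA genes, which bind at breaks and load the recombinase, the helicase BRIP1 showed the largest difference. It stood at 44.03 and 42.24 CPM in DMSO and 32.4 and 26.6 CPM in CBL0137. It was lower by adjusted p with a log2 fold change of -0.55, and BRIP1 passed the fold limit without DMSO replicate 2 or without CBL0137 replicate 1 (-0.70 is the lowest of its values over 13 settings on counts). BRCA2, the loader of the recombinase, measured 59.0 and 57.6 CPM in DMSO and 46.4 in each CBL0137 library, a log2 difference of -0.33. BRCA1 was lower by less, at 40.8 and 41.4 against 36.2 and 35.5 CPM (-0.20), and its partner BARD1 at -0.19 had an adjusted p of 0.052 in edgeR. PALB2, which bridges BRCA1 and BRCA2, measured 21.6 and 24.2 CPM in DMSO and 24.5 and 26.6 CPM in CBL0137 (0.16, edgeR adjusted p = 0.16). The read ratio of BRCA2 to PALB2 within a library was 2.74 and 2.37 in DMSO and 1.89 and 1.75 in CBL0137. Differences in response among the BRCA genes were not tested.

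The 5 recombinase paralogues, which stabilise the filament on single-stranded DNA, ranged in DMSO from 2.08 FPKM, a level scaled by gene length, for RAD51B to 10.9 FPKM for XRCC3. RAD51D was lower by adjusted p, from 11.6 and 10.8 CPM to 8.86 and 8.16 CPM (-0.40). RAD51B, which spans 910.4 kb of chromosome 14, measured 7.83 and 6.53 CPM in DMSO and 5.76 and 5.40 in CBL0137, with an edgeR adjusted p of 0.069. RAD51C (0.04) and XRCC3 (0.00) overlapped between conditions and changed sign between settings, and XRCC2 stood at -0.07. The 95% interval of XRCC2 ran from -0.19 to 0.05, so a 1.5-fold change in XRCC2 lies outside it.

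Of the other partners of the recombinase, RAD54L, a motor that remodels the filament, was lower by adjusted p, at 35.9 and 32.8 CPM against 27.1 and 27.2 (-0.34). RAD52, which anneals single strands, measured 21.6 in each DMSO library and 23.8 and 23.9 CPM in CBL0137 (0.14, edgeR adjusted p = 0.20). Within a library there were 2.88 and 3.02 reads of RAD51AP1 per read of RAD52 in DMSO and 1.77 and 1.75 in CBL0137. EXO1, the nuclease that extends resection, and RBBP8, also called CtIP, which starts it, were both lower by adjusted p. EXO1 went from 56.9 and 52.0 CPM to 41.6 and 40.4 CPM (-0.41). RBBP8 went from 59.4 and 56.8 CPM to 47.1 and 40.8 CPM (log2 fold change -0.41 ± 0.07, edgeR adjusted p = 2.4e-05). BLM, the helicase that dissolves joint molecules, measured 44.2 and 43.6 against 46.6 and 42.5 CPM, with an interval from -0.11 to 0.15.

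In the Fanconi pathway 8 of 11 members, UBE2T and the FANCD2-FANCI pair included, were lower by adjusted p and FANCF was higher. Of all tested genes, 19.0% were lower and 17.5% higher by adjusted p. FANCG, an adaptor of the core complex, measured 81.2 and 74.0 CPM in DMSO and 55.0 and 49.0 CPM in CBL0137. Its log2 fold change of -0.58 ± 0.06 fell just short of the limit, with an edgeR adjusted p of 4.1e-08. FANCA, which binds FANCG, stood at 89.4 and 89.8 CPM against 66.1 and 67.4 CPM (-0.42 ± 0.05, edgeR adjusted p = 2.4e-07). FANCC measured 41.8 and 40.5 against 33.0 and 33.8 CPM (-0.30 ± 0.07), and FANCM, the DNA translocase that anchors the complex, -0.24. These subunits were lower without overlap between conditions.

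FANCF, a core subunit that is encoded by a single exon, was the exception, with 19.7 and 17.8 CPM in DMSO and 23.05 and 23.70 CPM in CBL0137. Its log2 fold change was 0.32 ± 0.09 with an edgeR adjusted p of 0.0059, which became 0.048 in DESeq2 and 0.10 without DMSO replicate 2 (range 0.00063 to 0.25 over all settings). Reads of FANCA outnumbered those of FANCF 4.55 and 5.04 to 1 in DMSO and 2.87 and 2.85 to 1 in CBL0137. FANCE (-0.16) and the ligase subunit FANCL (-0.12) had an edgeR adjusted p of 0.12 and 0.43. Of the pair that receives the ubiquitin, FANCI measured 150.6 and 152.1 CPM in DMSO and 124.2 and 117.7 in CBL0137 (-0.32 ± 0.04, edgeR adjusted p = 1.6e-06), and FANCD2 -0.26. The read ratio of FANCI to FANCD2 was 1.68 and 1.80 in DMSO and 1.66 and 1.67 in CBL0137, and these ranges are close together.

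The effector kinases of the checkpoint were both lower by adjusted p, while ATM, ATR, ATRIP and TOPBP1 upstream of them did not pass. CHEK2, which acts below ATM, stood at 71.5 and 71.0 CPM in DMSO and 52.4 and 49.9 CPM in CBL0137 (log2 fold change -0.48 ± 0.06, edgeR adjusted p = 1.7e-07). CHEK1, which acts below ATR and restrains S phase and mitosis, measured 104.2 and 102.6 against 87.1 and 87.4 CPM (-0.25). There were 0.686 and 0.691 reads of CHEK2 per read of CHEK1 in DMSO and 0.601 and 0.570 in CBL0137. ATM itself measured 128.8 and 132.8 against 126.3 and 121.8 CPM (-0.08), with an interval from -0.17 to 0.01. ATR measured 57.2 and 53.6 against 58.0 and 57.3 CPM (0.06), with an interval from -0.06 to 0.18. ATRIP, which brings ATR to single-stranded DNA, and TOPBP1, which activates ATR, had log2 fold changes of -0.17 and -0.09 and an edgeR adjusted p of 0.29 and 0.15. For none of these 4 apical genes did the interval reach a 1.5-fold difference.

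Of the MRN complex, which tethers broken ends and activates ATM, NBN and MRE11 were lower by adjusted p. NBN, its signalling subunit, measured 50.02 and 54.80 CPM in DMSO and 39.7 and 35.3 CPM in CBL0137 (log2 fold change -0.48 ± 0.07, edgeR adjusted p = 3.6e-06). MRE11, the nuclease, stood at 66.4 and 71.7 against 58.1 and 55.8 CPM (-0.28 ± 0.06, edgeR adjusted p = 3.8e-04). RAD50, the tether, measured 11.2 and 10.5 against 11.4 and 9.84 CPM and overlapped between conditions, but 76.9% of its exonic bases are shared with another annotated gene, so its count is uncertain. The adaptors at marked chromatin, MDC1 and TP53BP1, differed little, at -0.12 ± 0.05 (edgeR adjusted p = 0.053) and 0.02. MDC1 measured 109.4 and 104.5 CPM in DMSO and 94.9 and 101.6 CPM in CBL0137, and its edgeR adjusted p was 0.047 without DMSO replicate 2, 0.010 without CBL0137 replicate 2 and 0.039 when no filter on low counts was used.

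End joining held the most abundant transcripts, and its 5 tested genes had a median log2 fold change of -0.16. By adjusted p 2 were lower and 1 higher, against 19.0% and 17.5% of all tested genes. XRCC5, which encodes the larger Ku subunit Ku80, measured 579.6 and 577.0 CPM in DMSO and 470.5 and 465.5 CPM in CBL0137. The log2 fold change was -0.31 ± 0.03 with an edgeR adjusted p of 3.8e-08, and its interval ran from -0.37 to -0.24. XRCC6, which encodes the partner subunit Ku70, measured 770.3 and 774.0 against 741.5 and 737.6 CPM (log2 fold change -0.06, interval from -0.13 to 0.00). These intervals do not overlap. Within a library there were 0.752 and 0.746 reads of XRCC5 per read of XRCC6 in DMSO and 0.635 and 0.631 in CBL0137, a shift that no scaling can alter.

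PRKDC, the catalytic subunit of DNA-PK that Ku recruits, was slightly lower, from 968.9 and 950.0 CPM to 862.7 and 853.6 CPM (-0.16 ± 0.03, edgeR adjusted p = 1.6e-04). LIG4, the ligase of the pathway, was the second member higher by adjusted p, at 16.6 and 16.7 CPM in DMSO and 21.1 and 19.6 in CBL0137. Its log2 fold change of 0.29 ± 0.09 had an edgeR adjusted p of 0.016, which was 0.096 in DESeq2 and 0.067, 0.065 and 0.12 without DMSO replicate 1, DMSO replicate 2 and CBL0137 replicate 1 (range 0.0028 to 0.24 over all settings). XRCC4, the scaffold of LIG4, measured 10.1 and 12.3 against 10.1 and 8.51 CPM (-0.27 ± 0.13, edgeR adjusted p = 0.12). Without DMSO replicate 1 its log2 fold change was -0.41 (edgeR adjusted p = 0.030), and without CBL0137 replicate 1 it was -0.40 (0.032). None of the 5 tested end-joining genes had an interval that reached a 1.5-fold difference. Such intervals belonged to 4 of the 16 genes linked to the cell cycle, 3 of the 13 other recombination and Fanconi genes and 2 of the 10 sensor and checkpoint genes.

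Levels were compared between genes only on the deposited FPKM, which is scaled by gene length. In DMSO the order was led by XRCC6 at 217 ± 1.84 FPKM (mean ± SD, n = 2), XRCC5 at 110 ± 2.10 and PRKDC at 45.9 ± 2.91. The next were UBE2T at 31.0 ± 1.40, CHEK2 at 24.7 ± 0.336 and FANCI at 24.4 ± 0.143 FPKM, of which the last 2 differed by less than the sum of their SDs. At the low end were RAD51B at 2.08 ± 0.713, ATRIP at 2.49 ± 0.134, LIG4 at 2.53 ± 0.0721, RAD51D at 2.66 ± 1.14 and FANCB at 2.66 ± 0.0284 FPKM, and neighbours among these 5 lay within their spread. BRCA2 and BRCA1 were also low, at 3.07 ± 0.138 and 3.63 ± 1.26 FPKM. In CBL0137, UBE2T stood at 20.5 ± 0.718 FPKM and XRCC6 at 217 ± 1.04.

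**Figure D3:**
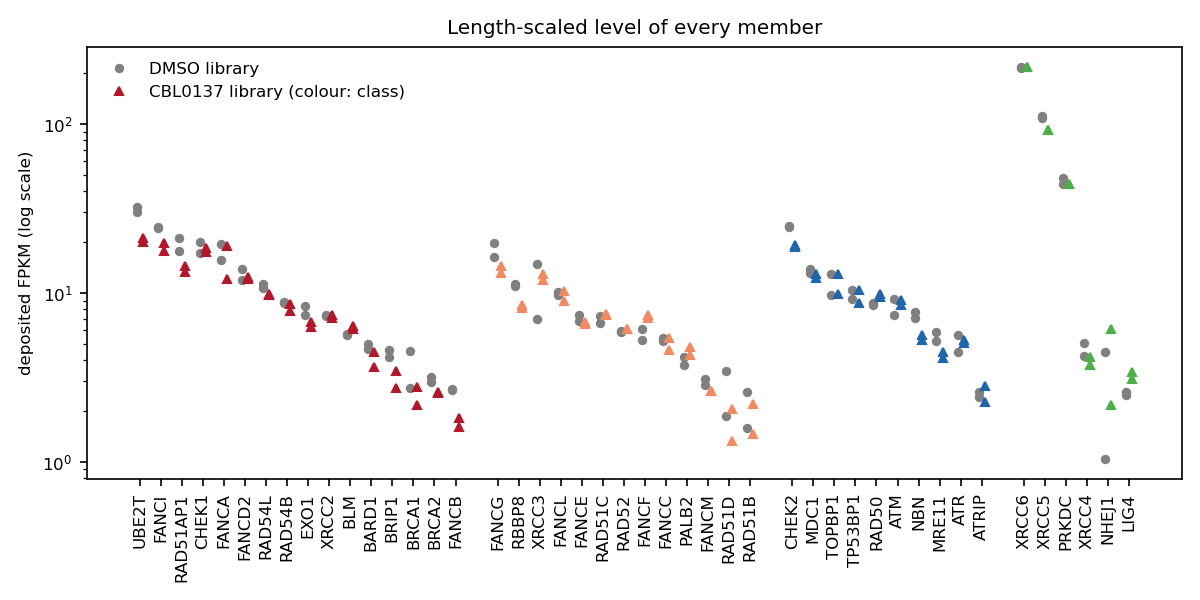
Deposited FPKM of all 45 members on a log axis, by class and in descending order of the DMSO mean. Grey circles are DMSO libraries and coloured triangles CBL0137 libraries. XRCC6, XRCC5 and PRKDC stand above every other member, and the wide spread of NHEJ1 and XRCC3 within a condition is visible.

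Counts and FPKM did not rest on the same reads for a few members. RAD50 had 228 to 255 reads and RAD54B 112 to 121, yet their mean FPKM over the 4 libraries was 9.12 and 8.47, close to the 9.66 of TP53BP1 with 1993 to 2202 reads. NHEJ1, a scaffold of the ligase step, had 0 and 3 reads in the DMSO libraries, with 1.04 and 4.48 FPKM, and 3 and 0 reads in the CBL0137 libraries, with 2.16 and 6.12 FPKM. In GENCODE models of GRCh37, 76.9% of the exonic bases of RAD50 overlap ENSG00000283782, 66.0% of those of RAD54B overlap FSBP, and 76.7% of those of XRCC3 overlap KLC1 on the other strand. Reads that HTSeq could not assign to a single gene were 9.19% to 9.50% of a library. The part of such overlaps in these low counts was not tested. Without these 3 genes, a choice made after seeing the data, the median difference between the classes was -0.19 in place of -0.20. XRCC3 belongs to neither side of that difference, so only RAD50 and RAD54B bear on the value.

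**Figure D4:**
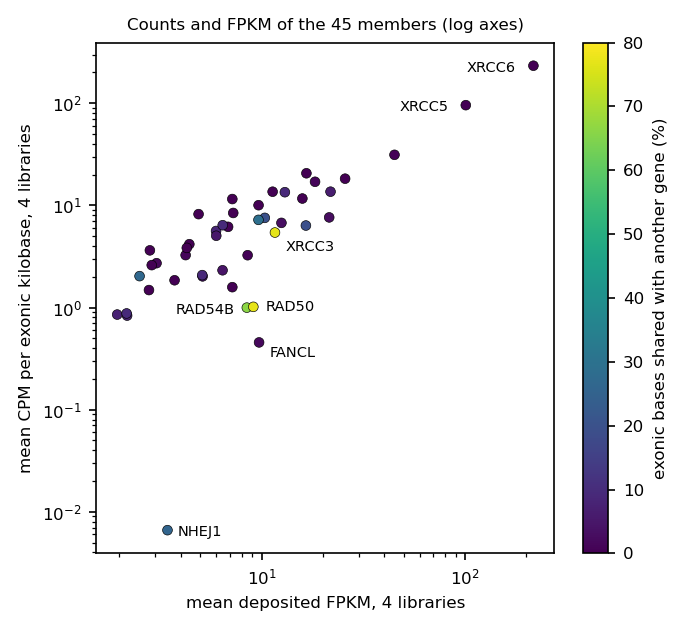
Mean CPM per exonic kilobase against mean deposited FPKM over 4 libraries for the 45 members, on log axes, coloured by the percent of exonic bases shared with another gene. RAD50, RAD54B, FANCL and NHEJ1 have the lowest CPM per exonic kilobase for their FPKM. Of these, RAD50 and RAD54B share 76.9% and 66.0% of their exonic bases, whereas FANCL shares 1.67%.

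FPKM also spread more between replicates than the counts did. The larger of the 2 within-condition differences between replicates exceeded 25% for 9 of the 44 tested members in FPKM and for 0 in CPM. As a ratio it reached 2.11 for XRCC3, 1.87 for RAD51D and 1.65 for BRCA1 in FPKM, against 1.06, 1.09 and 1.02 in CPM. Over the 44 members, the log2 ratio of mean FPKM and the log2 fold change of counts had a Spearman correlation of 0.89. This is a description across genes that share the same libraries. The correlation of the log2 fold change with the log2 genomic span was -0.11 and with the log2 FPKM in DMSO -0.17, again over 44 genes.

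Other genes of these pathways, from lists drawn up by known function, were counted in the same way. The shares over all tested genes were 2.73% fallen and 6.88% risen at both limits. By adjusted p alone they were 19.0% lower and 17.5% higher. Of 38 further recombination and Fanconi genes, 2 fell and 1 rose at both limits, and 14 were lower and 2 higher by adjusted p, with a median of -0.15. CENPX, a partner of FANCM, averaged 70.5 ± 3.85 CPM in DMSO (SD, n = 2) and fell to 41.3 ± 4.75 CPM in CBL0137, and the nuclease DNA2 fell from 47.9 ± 0.408 to 31.4 ± 3.45. EME2, a partner of a structure-specific nuclease, rose from 9.61 ± 0.524 to 15.3 ± 2.47 CPM and was named after its value was seen. Of 27 further checkpoint and break-signalling genes, 3 fell and 0 rose in edgeR, DESeq2 and limma-voom, and 13 were lower and 0 higher by adjusted p (14 and 0 at an unadjusted p below 0.05, 11 and 0 by adjusted p in DESeq2), with a median of -0.24. H2AX, the histone variant marked around breaks, fell from 264 ± 6.88 to 138 ± 0.171 CPM, and the mitotic phosphatase CDC25C from 33.2 ± 0.500 to 17.9 ± 0.938. SHLD1 of the shieldin complex, also named after its value was seen, went from 2.91 ± 0.282 to 1.41 ± 0.226 CPM. Of 14 further end-joining genes, 0 passed both limits, whether in edgeR, in DESeq2 or with voom. In edgeR 5 of them were lower and 0 higher by adjusted p (6 and 3 at an unadjusted p below 0.05), and TDP1 came closest to the fold limit at -0.58.

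Proliferation markers moved in the same direction as the class linked to the cell cycle. All 18 were lower in CBL0137 without overlap, as were 33.4% of all tested genes. Among the 18, 16 were lower by adjusted p and 7 at both limits, with a median of -0.45. Their summed level was 5600 to 5619 CPM in DMSO and 3968 to 4001 CPM in CBL0137. RRM2, a subunit of ribonucleotide reductase, fell from 344 ± 0.490 to 166 ± 4.19 CPM. In bulk RNA, fewer cells in a phase of the cycle and less RNA per cell cannot be told apart, and the part of cell-cycle position in the members' differences was not tested.

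**Figure D5:**
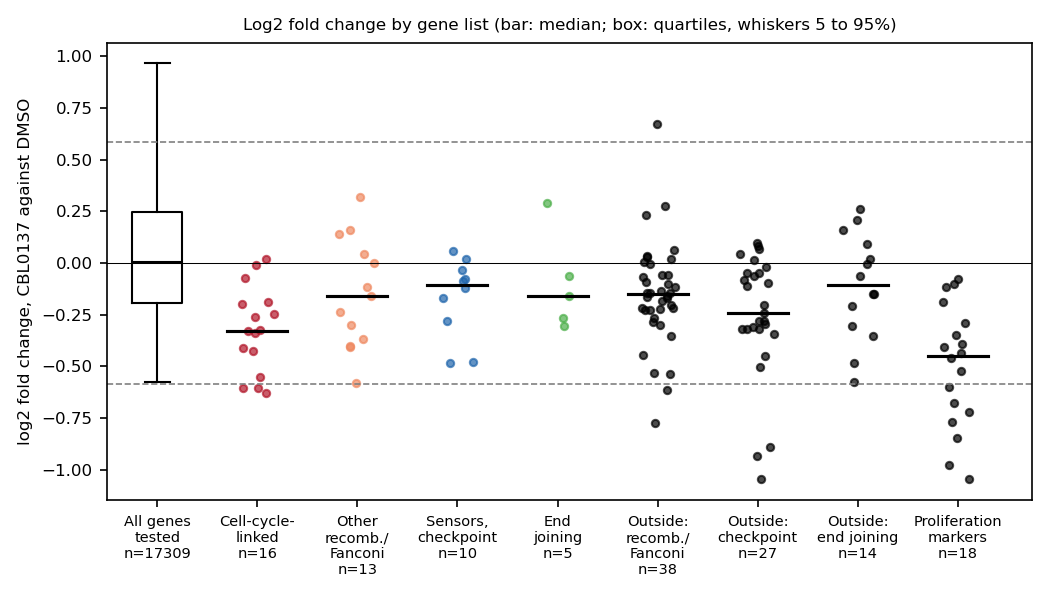
Log2 fold change of the tested genes of each list, with a bar at the median, and the quartiles of all 17309 tested genes as a box whose whiskers span 5% to 95%. Dashed lines mark a 1.5-fold difference. The class linked to the cell cycle has a median of -0.33 and the proliferation markers one of -0.45, while all genes centre on 0.00 under TMM scaling.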

How the data were processed

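RNA of 4 libraries of A673 cells, 2 given DMSO and 2 given CBL0137 and grouped by their titles, was measured by RNA-seq. Per the submitters' processing notes and the series' design text, the authors trimmed reads with Trim Galore, mapped them to hg19 with HISAT2 and deposited counts per gene from HTSeq 0.11.1. They also deposited FPKM, which per the series' design text scales read number by gene length and depth. The annotation release and the strand setting are not given in the sources used here, which leaves the split of reads between antisense or overlapping genes uncertain. HTSeq summary rows held 23.7% to 24.8% of reads and stayed out of library sizes and tests.

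IDs were matched to symbols of GENCODE 44 on GRCh37, the build also called hg19, for 58524 of 60617 genes. The test was edgeR 4.0.16 in R 4.3.3 with TMM factors, filterByExpr (minimum count 10) and its quasi-likelihood test, treated against control, adjusted over all 17309 genes. A gene was called at an adjusted p below 0.05 and a fold above 1.5, the limits the authors state. CPM values are after TMM scaling. A standard error is the log2 fold change divided by the square root of the F statistic. The test was first run on simulated counts. Intervals are at 95%, and with 2 libraries per condition they are wide for weakly expressed genes. Replicates differed by more than sampling noise (chi-square per degree of freedom 2.07 in DMSO and 2.57 in CBL0137).

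Members and lists were chosen with earlier results of these data known. Full statistics were given to called members and to the 4 of each class with the smallest adjusted p, and up to 4 genes of each other list could be named. Within-library read ratios and the list of promoters shown were chosen after values were seen. PECAM1 had no matching ID. Alternatives were other scalings, filters and fold limits, DESeq2 1.42.0, limma 3.58.1 (voom, and trend on log2 FPKM), a replicate block and each library left out. Figures were drawn with matplotlib 3.10.9 in Python 3.11.15.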

Additional observations from a re-analysis of the deposited data

How the results depend on the processing

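The main analysis called 1663 genes and 3 members, found 22 members lower by adjusted p and a class difference of -0.20. Scaling by upper-quartile factors or by library size alone called 0 members, with 27 and 25 at an unadjusted p below 0.05, and DESeq2 called 1053 genes but the same number of members, 3. In edgeR a fold limit of 25% gave 3489 genes and 14 members, and a 2-fold limit 736 genes and 0 members. Limma-trend on log2(FPKM + 1) called 577 genes and 0 members, with 5 members lower by adjusted p and 14 at an unadjusted p below 0.05. With a pseudocount of 0.1 it called 726 genes and 1 member, UBE2T, with 5 lower. With no filter it called 0 genes and 0 members and placed 0 members lower by adjusted p, although 6361 genes and 15 members had an unadjusted p below 0.05 and edgeR and DESeq2 made the calls above. The cause was not tested.

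Leaving out 1 library at a time gave 1343 to 1591 genes, 3 to 4 members called, 20 to 23 members lower and a class difference of -0.23 to -0.19. Different members made up these counts: FANCG and BRIP1 were called without DMSO replicate 2 and without CBL0137 replicate 1. With a replicate block there were 1576 genes and 3 members called, 22 members lower and a class difference of -0.20, and the deviations of same-numbered libraries had a correlation of -0.00013, so the labels' numbers give no sign of pairing. The class difference kept its sign in all settings run. The counts by adjusted p did not separate the classes on FPKM. There, 2 genes linked to the cell cycle and 2 sensor, checkpoint and end-joining genes were lower with either pseudocount. Without a filter these were 0 and 0. Under count settings, the 3 called members kept their call in 27 of 36 values and lost it in 9. Of 168 values of the other 14 members given full statistics, 165 stayed uncalled and 3 gained a call, and 0 of the 204 values changed sign. By adjusted p alone, 5 values (LIG4 and FANCF) passed from under to over 0.05 and 5 (MDC1 and XRCC4) from over to under it. Among members without full statistics, RAD54B, BLM, RAD51C, XRCC3, FANCL, RAD50 and TP53BP1 changed sign between settings. NHEJ1 had at most 3 reads in a library, although its mean FPKM was 2.76 in DMSO and 4.14 in CBL0137. The cause of this mismatch was not tested.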
